A study of Homo sapiens with 3 samples.

Results

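The genes described here encode the TGF-β ligands, their receptors and the latent TGF-β binding proteins. They were chosen by symbol as TGFB1, TGFB2, TGFB3, TGFBR1, TGFBR2, TGFBR3, LTBP1, LTBP2, LTBP3 and LTBP4, which are 10 of the 16149 genes listed in at least 1 library, and all 10 were listed in all 3 libraries. The study sequenced mRNA from 3 cultured strains of HCCLM3, a human hepatocellular carcinoma (HCC) cell line, with 1 library each, to ask how gene expression differed among strains with unlike metastatic tropism. The labels give the parent a low ability to metastasize, subclone 1 a higher ability directed to the lung, and subclone 2 a dual ability directed to lung and celiac lymph node. All 3 strains were grown in DMEM. The methods of the study describe the parental cells as HCCLM3-R, a derivative labelled with red fluorescent protein and called highly metastatic there, and the subclones as monoclones grown by limiting dilution from lung or lymph node foci of nude mice, so that each subclone library stands for 1 clone, whose name is not given in the sources used here.

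TGF-β is secreted in a latent form, in which the mature ligand stays wrapped in its own propeptide. The latent TGF-β binding proteins LTBP1, LTBP3 and, more weakly, LTBP4 bind that propeptide and anchor it in the extracellular matrix, and integrins or proteases then release the ligand. The free ligand binds the type II receptor TGFBR2, which activates the type I receptor TGFBR1, and TGFBR1 phosphorylates SMAD2 and SMAD3. In the liver the pathway is known for holding hepatocyte growth in check and for driving fibrosis, and in advanced liver cancer for invasion.

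The level of a gene was its RPKM, the reads per kilobase of gene scaled to the total reads of the library. This puts genes of unlike length and libraries of unlike depth on a common scale. It does not correct for other differences between libraries, and results under other scalings are given below. Library totals of 4488825 reads in parental cells, 4609696 in subclone 1 and 4725150 in subclone 2, and the reads behind each value, were worked out from the RPKM. The RPKM fix these totals only up to a common factor, and the set used was the one whose implied gene lengths came within 5% of an annotated transcript for 364 of 623 genes (58.4%), against at most 13.3% for the other sets tried. All reads and intervals below rest on that choice. Intervals are exact 95% intervals of those reads, Poisson for a level and Clopper-Pearson for a ratio. They cover counting error only, since reads that come from 1 molecule are not told apart and no strain had a replicate library, so that no difference between strains was tested. The liver character of the strains was uneven by marker. HNF4A, a transcription factor of hepatocytes, had 11.7 RPKM in parental cells, 11.9 in subclone 1 and 16.0 in subclone 2, whereas albumin (ALB) had 2.46, 49.5 and 68.8 RPKM, and transthyretin (TTR) was at 0 in parental cells and in subclone 1. Of 8 hepatocyte markers, 7 were above 0 in parental cells, 7 in subclone 1 and 8 in subclone 2, with sums of 22.9, 98.0 and 100.1 RPKM. Markers of other cells were mixed. PTPRC of blood cells and CDH5 of endothelium had at most 1 read in any library, and PDGFRA, PDGFRB and ACTA2 of fibroblasts were not listed in any, whereas CD68 of macrophages was at 75.3, 112 and 99.6 RPKM and LUM of fibroblasts at 10.1, 24.0 and 21.0 RPKM. PECAM1, KDR, COL3A1 and DCN were lower but also averaged 1 RPKM or more, and their values stand beside the pathway genes they bear on.

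The promoters of the 3 genes whose levels differed between a subclone and the parent by more than counting error at an RPKM of at least 1 are shown here, because they differ widely in base composition. Each is the stretch from 250 bases before to 50 after the RefSeq start of the gene (GRCh38.p14), written 5′ to 3′ on the strand of the gene, with every GC box, the motif GGGCGG on either strand, in capitals. The TGFB1 promoter is chr19:41353873-41354172 on the minus strand, that of LTBP3 is chr11:65558310-65558609 on the minus strand, and that of TGFBR2 is chr3:30606106-30606405 on the plus strand.
TGFB1: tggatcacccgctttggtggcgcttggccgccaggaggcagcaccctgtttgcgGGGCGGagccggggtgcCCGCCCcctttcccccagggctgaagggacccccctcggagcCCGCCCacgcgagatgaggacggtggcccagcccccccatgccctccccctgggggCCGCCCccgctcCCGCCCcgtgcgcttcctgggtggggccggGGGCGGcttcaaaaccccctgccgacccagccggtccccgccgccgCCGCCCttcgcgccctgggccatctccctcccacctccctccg
LTBP3: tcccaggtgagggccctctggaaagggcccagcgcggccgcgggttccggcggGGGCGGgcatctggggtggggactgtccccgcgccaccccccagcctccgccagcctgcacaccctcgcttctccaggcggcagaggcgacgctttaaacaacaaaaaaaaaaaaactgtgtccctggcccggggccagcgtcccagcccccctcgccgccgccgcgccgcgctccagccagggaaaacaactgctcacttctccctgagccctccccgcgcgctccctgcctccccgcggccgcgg
TGFBR2: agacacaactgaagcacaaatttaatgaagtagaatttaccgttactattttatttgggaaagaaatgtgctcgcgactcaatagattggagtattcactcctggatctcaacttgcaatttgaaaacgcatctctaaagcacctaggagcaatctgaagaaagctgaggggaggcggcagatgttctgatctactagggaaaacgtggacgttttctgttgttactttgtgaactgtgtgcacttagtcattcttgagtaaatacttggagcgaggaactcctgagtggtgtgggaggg
The TGFB1 window held 7 GC boxes and had a GC content of 77.3%, above 94.4% of the 27305 promoters of the same length. The LTBP3 window held 1 GC box with a GC content of 72.0%, and the TGFBR2 window held 0 with a GC content of 42.3%. At the RefSeq starts, TGFB1 and TGFBR2, the most abundant ligand and receptor, thus lay on opposite sides of the median over all promoters, 58.3%. In the GENCODE annotation of GRCh38, TGFBR2 starts at 30606502, past the end of its window. LTBP3 starts there at 65558930, upstream of its window. The GENCODE starts of TGFB2, TGFBR1, TGFBR3 and LTBP4 also lie outside their windows. Those of TGFB1, TGFB3, LTBP1 and LTBP2 lie inside their windows, but not at the RefSeq start. The contents of the windows therefore hold for the RefSeq starts only, and other starts were not searched. A GC box was present in the promoters of 5 of the 10 genes, the others being TGFBR3 with 2, LTBP2 with 3 and LTBP4 with 1, and in 44.6% of all promoters. The letters CAGAC, the core of many SMAD binding elements, were searched on both strands and occurred in 6 of the 10 (TGFB2, TGFB3, TGFBR1, LTBP1, LTBP2 and LTBP4) and in 45.0% of all promoters. The letters TATAAA were found in the TGFB2 window alone among the 10, and in 12.0% of all promoters. These matches are a description of the sequence and were not tied to any level.

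TGFB1, TGFB2 and TGFBR2 stood far above the remaining genes of the group in all 3 libraries. In the parent the order of levels was TGFBR2, TGFB1, TGFB2, LTBP3, LTBP1, TGFBR1, LTBP4, TGFBR3, LTBP2 and TGFB3. Of the neighbours in this order, LTBP3 and LTBP1, LTBP4 and TGFBR3, and LTBP2 and TGFB3 had overlapping intervals. In both subclones TGFB1 came before TGFBR2 and the rest of the order was the same, and the only neighbours with overlapping intervals were LTBP2 and TGFB3 in subclone 2. Against all genes listed in a library, TGFBR2 lay at percentile 94.9 in parental cells and 92.7 in subclone 2, TGFB1 at 92.5 and 94.1, and TGFB3 at 7.56 and 15.0.

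**Figure D1:**
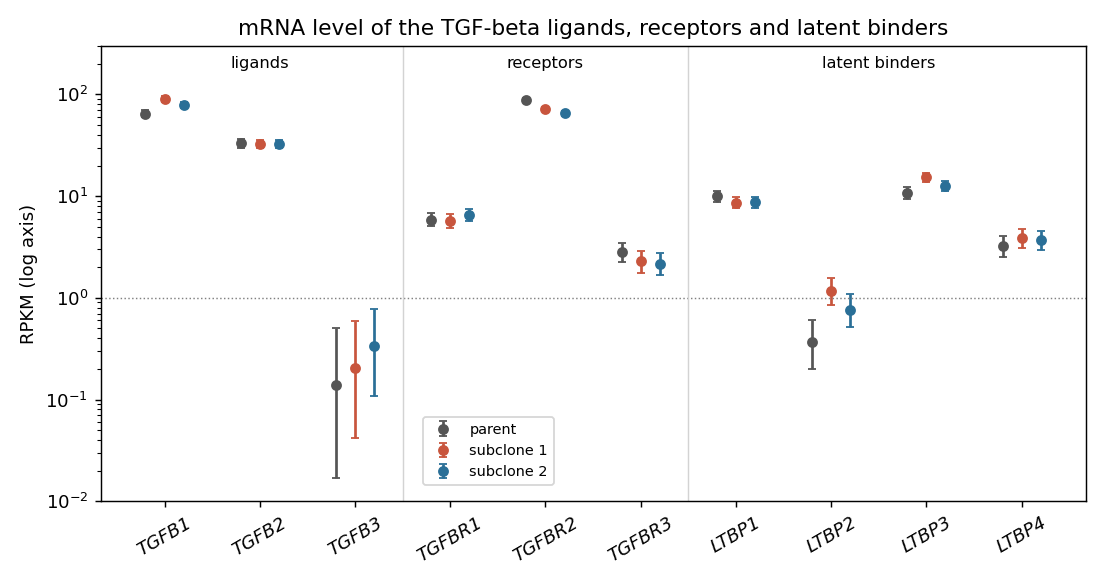
Levels of the 10 genes in RPKM on a log axis, with 1 point per library (parent, subclone 1, subclone 2) and bars for the exact 95% Poisson interval of the reads. The points of TGFB1, TGFB2 and TGFBR2 sit between 32.4 and 89.7 RPKM, and those of TGFB3 are at 0.332 RPKM or lower.

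Among the ligands, TGFB1 was higher in both subclones than in parental cells, TGFB2 was level, and TGFB3 was close to the limit of detection. TGFB1 (Entrez gene 7040; chromosome 19, 41301587 to 41353911, minus strand, 7 exons) encodes the most widely expressed isoform, and this position and those of the other genes are from the GENCODE annotation of GRCh38. Its level was 64.4 RPKM in parental cells (641 reads, 59.5 to 69.6), 89.7 RPKM in subclone 1 (917 reads, 84.0 to 95.7) and 78.4 RPKM in subclone 2 (821 reads, 73.1 to 83.9). The 3 intervals did not overlap, with subclone 1 the highest and the parent the lowest. TGFB1 was 1.39-fold higher in subclone 1 than in parental cells (1.26 to 1.54) and 1.22-fold higher in subclone 2 (1.10 to 1.35), and its ratio of subclone 2 to subclone 1 was 0.873 (0.794 to 0.961). Folds here are plain ratios of RPKM, while log2 ratios and counts of genes past 2-fold were taken as log2 of (RPKM + 0.1) over (RPKM + 0.1), which is lower for genes with few reads. The log2 ratios of TGFB1 were 0.48 and 0.28 over the parent, at percentiles 84.8 and 72.2 of the 11370 genes whose RPKM averaged 1 or more over the libraries, so that many genes differed by more. Between the subclones the log2 ratio of TGFB1 was -0.195. It became -0.07 when each library was divided by its level of ACTB and -0.08 with GAPDH. The sum of the hepatocyte markers was also higher in both subclones, where ALB made up 50.5% and 68.7% of it. The single markers were uneven. HNF4A stood at 1.01 of the parent in subclone 1 (0.817 to 1.26) and 1.37 in subclone 2 (1.12 to 1.67). Transferrin (TF) stood at 5.30 in subclone 1 (3.70 to 7.79) and 1.03 in subclone 2 (0.637 to 1.67). The part of these markers in the TGFB1 result was not tested. PF4, a marker of platelets, which are rich in TGF-β1, had at most 2 reads in any library. Exons of HNRNPUL1 on the other strand overlap 6.64% of the exon bases of TGFB1, and whether reads were counted by strand is not given in the sources used here.

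TGFB2 (Entrez gene 7042; chromosome 1, 218346235 to 218444619, plus strand, 7 exons) encodes the isoform that binds TGFBR2 poorly without TGFBR3. It had 33.1 RPKM in parental cells (443 reads, 30.1 to 36.3), 32.4 RPKM in subclone 1 (446 reads, 29.5 to 35.6) and 32.7 RPKM in subclone 2 (461 reads, 29.8 to 35.8). All 3 intervals overlapped almost completely. The ratio over the parent was 0.980 in subclone 1 (0.858 to 1.12) and 0.989 in subclone 2 (0.866 to 1.13), and that between the subclones was 1.01 (0.883 to 1.15). The reads of TGFB2 could also be 886, 892 and 922, with a gene length of 5966 bases in place of 2983, which leaves the RPKM as they are and narrows the interval of the first ratio to 0.892 to 1.08. The transcript TGFB2-OT1 shares 26.6% of the exon bases of TGFB2 on the same strand, so that its reads cannot be told apart from those of TGFB2 there.

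TGFB3 (Entrez gene 7043; chromosome 14, 75958099 to 75982991, minus strand, 7 exons), the isoform known for its part in palate closure, had 2 reads in parental cells, 3 in subclone 1 and 5 in subclone 2. These correspond to 0.140 RPKM (0.017 to 0.506), 0.204 RPKM (0.042 to 0.598) and 0.332 RPKM (0.108 to 0.776). The intervals of all 3 libraries overlapped, and the ratio of subclone 2 to the parent, 2.37, had an interval of 0.389 to 24.9, and a difference could not be detected with so few reads. Since the parent and subclone 1 were at or under 3 reads, no fold is given between them. Among the ligands together, the sum of the 3 levels was 97.6 RPKM in parental cells, 122 RPKM in subclone 1 and 111 RPKM in subclone 2, of which TGFB1 made up 66.0%, 73.3% and 70.3%.

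Of the receptors, TGFBR2 was lower in both subclones than in parental cells, and neither TGFBR1 nor TGFBR3 differed by more than counting error. TGFBR2 (Entrez gene 7048; chromosome 3, 30606502 to 30694142, plus strand, 7 exons) is the ligand-binding kinase that starts the signal. Its level was 87.6 RPKM in parental cells (1849 reads, 83.6 to 91.7), 72.3 RPKM in subclone 1 (1567 reads, 68.7 to 75.9) and 65.4 RPKM in subclone 2 (1453 reads, 62.1 to 68.8). The interval of the parent lay wholly above those of the subclones, which touched each other between 68.7 and 68.8 RPKM. The ratio over the parent was 0.825 in subclone 1 (0.771 to 0.883) and 0.747 in subclone 2 (0.696 to 0.800), with log2 ratios of -0.28 and -0.42 at percentiles 22.1 and 12.6. Subclone 2 stood at 0.905 of subclone 1 (0.842 to 0.972), a log2 ratio of -0.14 that became -0.02 when each library was divided by its level of the housekeeping gene ACTB and -0.03 with GAPDH.

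TGFBR1 (Entrez gene 7046; chromosome 9, 99104038 to 99154192, plus strand, 9 exons), the kinase that phosphorylates the SMAD proteins, was far less abundant than TGFBR2. It had 5.88 RPKM in parental cells (171 reads, 5.03 to 6.83), 5.70 RPKM in subclone 1 (170 reads, 4.87 to 6.62) and 6.54 RPKM in subclone 2 (200 reads, 5.66 to 7.51). The 3 intervals overlapped. Its ratio over the parent was 0.968 in subclone 1 (0.778 to 1.20) and 1.11 in subclone 2 (0.901 to 1.37), and its ratio between the subclones was 1.15 (0.931 to 1.42). Within a library, TGFBR2 exceeded TGFBR1 by 14.9-fold in parental cells, 12.7-fold in subclone 1 and 10-fold in subclone 2.

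TGFBR3 (Entrez gene 7049; chromosome 1, 91680343 to 91906335, minus strand, 17 exons), or betaglycan, is a coreceptor that presents ligand to TGFBR2 and also binds inhibins. It had 2.81 RPKM in parental cells (83 reads, 2.24 to 3.49), 2.28 RPKM in subclone 1 (69 reads, 1.77 to 2.88) and 2.16 RPKM in subclone 2 (67 reads, 1.67 to 2.74). The parent had the highest value, but all 3 intervals overlapped. The ratio over the parent was 0.810 in subclone 1 (0.580 to 1.13) and 0.767 in subclone 2 (0.547 to 1.07), and both intervals include 1. The sum of the 3 receptors was 96.3 RPKM in parental cells, 80.2 RPKM in subclone 1 and 74.1 RPKM in subclone 2, and TGFBR2 made up 91.0%, 90.1% and 88.3% of it. In cultured strains sequenced in bulk, fewer cells that express a gene and less RNA per cell cannot be told apart.

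**Figure D2:**
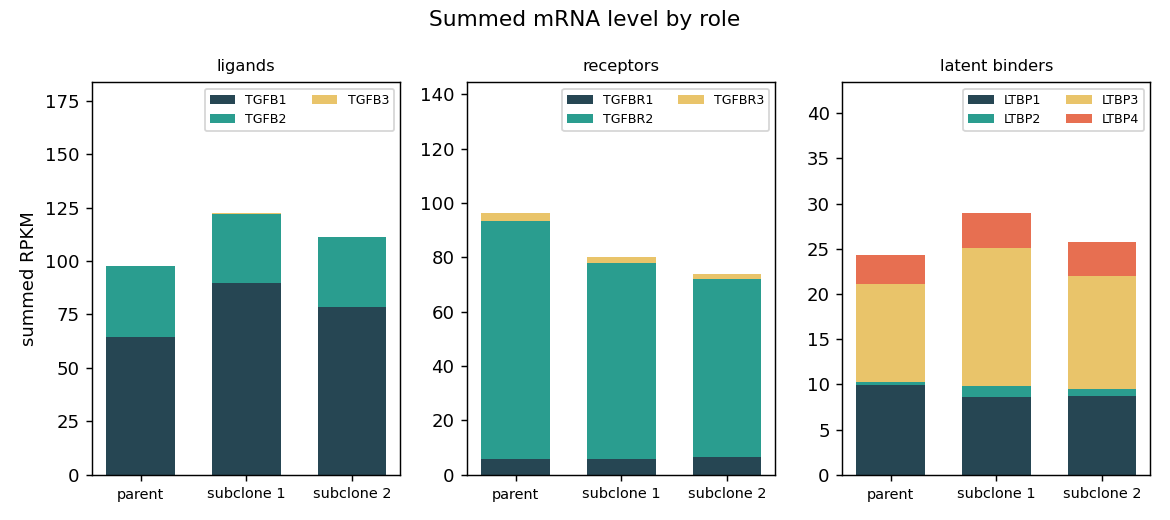
Summed RPKM of the ligands, the receptors and the latent binders in each of the 3 libraries, as stacked bars that start at 0, with 1 segment per gene. The ligand bar is 97.6 RPKM in parental cells and 122 RPKM in subclone 1, while the receptor bar is 96.3 RPKM in parental cells and 74.1 RPKM in subclone 2, nearly all of it TGFBR2.

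Among the latent binders, LTBP3 was higher in subclone 1, LTBP2 was higher in both subclones at a very low level, and LTBP1 and LTBP4 did not differ by more than counting error. LTBP3 (Entrez gene 4054; chromosome 11, 65538805 to 65558930, minus strand, 28 exons) is a binder that is secreted with latent TGF-β and is needed for normal bone. Its level was 10.8 RPKM in parental cells (229 reads, 9.45 to 12.3), 15.3 RPKM in subclone 1 (333 reads, 13.7 to 17.0) and 12.6 RPKM in subclone 2 (280 reads, 11.1 to 14.1). Subclone 1 lay above the parent without overlap, and subclone 2 lay between them and overlapped both. LTBP3 was 1.42-fold higher in subclone 1 than in parental cells (1.19 to 1.68), a log2 ratio of 0.50 at percentile 85.5. The fold was 1.16 for subclone 2 over the parent (0.972 to 1.39) and 0.820 for subclone 2 over subclone 1 (0.697 to 0.964).

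LTBP1 (Entrez gene 4052; chromosome 2, 32946972 to 33399509, plus strand, 30 exons), the best studied carrier of latent TGF-β, had 9.93 RPKM in parental cells (275 reads, 8.79 to 11.2), 8.62 RPKM in subclone 1 (245 reads, 7.57 to 9.77) and 8.72 RPKM in subclone 2 (254 reads, 7.68 to 9.86). The parent was highest, with intervals that overlapped those of both subclones. The ratio over the parent was 0.868 in subclone 1 (0.727 to 1.03) and 0.877 in subclone 2 (0.737 to 1.04). LTBP3 and LTBP1 were thus nearly equal in parental cells, with a ratio of LTBP3 to LTBP1 of 1.09, against 1.78 in subclone 1 and 1.44 in subclone 2. One primer pair of the study matched LTBP1 as well. Of the 22 pairs in its primer list, the pair entered under the name IL-8 matched 6 transcripts of LTBP1 and those of no other gene, with a product of 87 bases from exon 5 to exon 6 of a transcript with 34 exons (chr2:33134936-33186917, plus strand, GRCh38).
Forward primer: ctgacggccacgaacttcc
Reverse primer: gcactgacatttgtcccttga

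LTBP4 (Entrez gene 8425; chromosome 19, 40592883 to 40629818, plus strand, 33 exons), a binder also known for elastic fibre assembly, had 3.24 RPKM in parental cells (75 reads, 2.55 to 4.06), 3.87 RPKM in subclone 1 (92 reads, 3.12 to 4.74) and 3.69 RPKM in subclone 2 (90 reads, 2.97 to 4.53). The 3 intervals overlapped, with folds over the parent of 1.19 in subclone 1 (0.871 to 1.64) and 1.14 in subclone 2 (0.830 to 1.57). LTBP4 lies 0.672 Mb from TGFB1, and LTBP2 lies 1.346 Mb from TGFB3, so that 2 of the 3 ligand genes have a binder gene on the same chromosome within a few megabases. LTBP2 (Entrez gene 4053; chromosome 14, 74498170 to 74612378, minus strand, 36 exons) is a matrix protein of elastic fibres that does not bind latent TGF-β. It had 0.364 RPKM in parental cells (14 reads, 0.199 to 0.611), 1.16 RPKM in subclone 1 (46 reads, 0.853 to 1.55) and 0.766 RPKM in subclone 2 (31 reads, 0.520 to 1.09). Subclone 1 did not overlap the parent, whereas subclone 2 overlapped both. LTBP2 was 3.20-fold higher in subclone 1 than in parental cells (1.73 to 6.30) and 2.10-fold higher in subclone 2 (1.09 to 4.28), with log2 ratios of 1.45 and 0.90 after the added 0.1, and its mean over the libraries, 0.765 RPKM, fell below the minimum of 1 RPKM for counting. The sum of the latent binders was 24.3 RPKM in parental cells, 28.9 RPKM in subclone 1 and 25.7 RPKM in subclone 2.

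**Figure D3:**
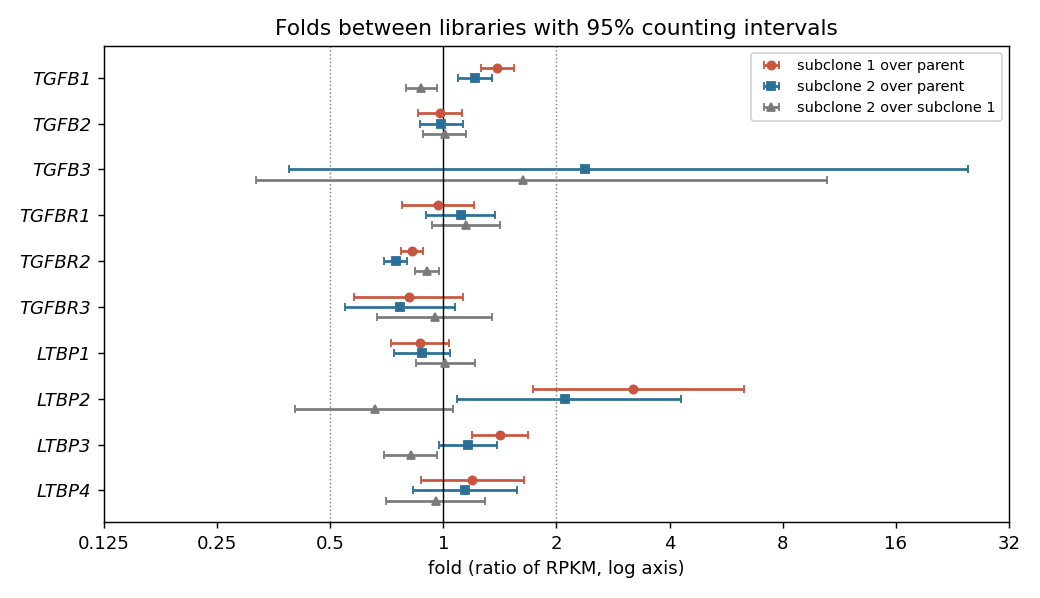
Ratios of the 10 genes for subclone 1 over the parent, subclone 2 over the parent and subclone 2 over subclone 1 on a log axis, with exact 95% Clopper-Pearson intervals, leaving out TGFB3 in subclone 1 over the parent, where both libraries had at most 3 reads. The intervals of TGFB1 lie above 1 and those of TGFBR2 below 1 for both subclones over the parent, while the interval of TGFB3 runs up to 24.9.

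Of the 10 genes, 8 had a mean RPKM of at least 1, and none of these 8 differed 2-fold or more in any of the 3 comparisons. In all 3 comparisons the intervals of all 8 also lay inside the range from 0.5 to 2. Among all 11370 genes, the 2-fold threshold was passed upward by 4.9% and downward by 1.82% in subclone 1 over the parent, by 5.33% and 2.16% in subclone 2 over the parent, and by 1.42% and 1.39% in subclone 2 over subclone 1. With shares this small, 0 of 8 genes is near the background. The comparisons with the parent share its library, and the comparison between the subclones shares a library with each of the others, so that their values are not independent.

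By the interval of the ratio, TGFB1 and LTBP3 lay above 1 and TGFBR2 below 1 in subclone 1 over the parent, which is 2 and 1 of the 8 genes. Of all genes with reads worked out, 19.9% lay above 1 and 18.9% below 1 in that comparison. In subclone 2 over the parent, TGFB1 lay above 1 and TGFBR2 below 1, or 1 of 8 each way, against 22.9% and 17.9% of all genes. Between the subclones, 0 of the 8 lay above 1 and TGFB1, TGFBR2 and LTBP3 lay below 1 in subclone 2 over subclone 1, against 11.5% and 8.5%. The counts over the parent are near the background, and the 3 of 8 between the subclones are a larger share than the 8.5%, which was not tested. The ratios behind that count depended on scaling, and the count was not repeated under other scalings. Division by ACTB brought the log2 ratios of TGFB1, TGFBR2 and LTBP3 to -0.07, -0.02 and -0.16, from -0.195, -0.144 and -0.284. It also shifted the median of all genes by 0.12. Centring on the median ratio of all genes moved the 3 log2 ratios the other way, to -0.23, -0.18 and -0.32. The median log2 ratio of the 8 genes was -0.04, 0.07 and -0.07 in the 3 comparisons, beside 0.00, 0.04 and 0.03 over all genes.

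On the RPKM as deposited, LTBP3 had the largest absolute log2 ratio over the parent among the 8 genes, whereas with division by ACTB it was 0.37 in subclone 1 and TGFBR2 was at -0.43 in subclone 2. The genes with the most similar pattern, by the Euclidean distance over the 3 log2 levels each centred on its own mean, were SOX9, NLK, BACH1, PEA15 and PQLC3, at distances of 0.0138 to 0.0173 log2 units. SOX9, a transcription factor of bile duct and progenitor cells, had 5.85 RPKM in parental cells, 8.32 RPKM in subclone 1 and 6.73 RPKM in subclone 2. With only 3 libraries such a match is easily met, and 197 of the 11369 other genes (1.733%) lay within a distance of 0.1.

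The rest of the pathway was read from 4 lists with 88 genes, of which 82 were listed in at least 1 library and 62 had a mean RPKM of at least 1. In subclone 1, 6 of the 62 were at or above 2-fold over the parent (ITGB3, MMP14, DCN, ENG, INHBA and ANGPTL4) and 2 were as far below it (MMP2 and INHBB). In subclone 2, 6 were higher (DCN, ENG, FSTL3, PMEPA1, CDKN1A and ANGPTL4) and 5 lower (ITGB3, MMP2, INHBA, INHBB and TAGLN). ITGB3 reached 1 RPKM only in subclone 1 (2.57 RPKM), and PMEPA1 only in subclone 2 (1.80 RPKM). They met the minimum mean of 1 RPKM through the library where they were high. INHBA, at 1.43, 2.99 and 0.292 RPKM in parental cells, subclone 1 and subclone 2, met it largely through subclone 1. ENG and DCN were under 1 RPKM in parental cells (0.627 and 0.773 RPKM) and met it through the subclones. This favours the entry of all these genes in these counts and in those below. The counts come to 9.677% higher and 3.226% lower in subclone 1, and 9.677% and 8.065% in subclone 2, beside the 4.9%, 1.82%, 5.33% and 2.16% of all genes given above. The lists were chosen with earlier results of these data known, and ANGPTL4 was singled out by the study itself. The shares are therefore no independent comparison and were not tested. The median log2 ratio of the 62 genes was 0.10 in subclone 1 and 0.00 in subclone 2.

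None of the 17 signal transducers and their inhibitors, which carry the signal from the receptor to the nucleus, was at least 2-fold different in any comparison, which is near the background given the small shares of all genes above. FKBP1A, the immunophilin that binds the resting type I receptor, was the most abundant of them at 249 RPKM in parental cells, 253 RPKM in subclone 1 and 243 RPKM in subclone 2. Its ratio over the parent was 1.02 (0.953 to 1.08) in subclone 1 and 0.976 (0.915 to 1.04) in subclone 2.

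Among the 13 activators and stores of latent TGF-β at this level, 3 were higher and 1 lower in subclone 1, and 1 was higher and 2 lower in subclone 2. The shares were 23.077% and 7.692% in subclone 1, beside 4.9% and 1.82% of all genes. In subclone 2 they were 7.692% and 15.385%, beside 5.33% and 2.16%. In a list of 13 a single gene is a large share, and no share was tested. ITGB3, the β3 subunit of the integrin αvβ3, had 0.819 RPKM in parental cells (18 reads), 2.57 RPKM in subclone 1 (58 reads) and 0.216 RPKM in subclone 2 (5 reads). It was thus 3.14-fold higher in subclone 1 (1.82 to 5.66) and at 0.264 of the parent in subclone 2 (0.0766 to 0.737). MMP2, a gelatinase able to release TGF-β, had 12.7 RPKM in parental cells, 3.79 RPKM in subclone 1 and 0.775 RPKM in subclone 2, with ratios over the parent of 0.297 (0.220 to 0.397) and 0.0608 (0.0318 to 0.106). MMP14, the membrane-bound protease that activates MMP2, went the other way, at 8.08 RPKM in parental cells, 17.9 RPKM in subclone 1 and 15.8 RPKM in subclone 2, which is 2.21-fold (1.79 to 2.74) and 1.96-fold (1.58 to 2.44) higher. DCN, a proteoglycan that binds TGF-β, had 0.773, 4.42 and 2.75 RPKM in parental cells, subclone 1 and subclone 2 (8, 47 and 30 reads). DCN is also a fibroblast marker. Of the 8 fibroblast and stellate cell markers, 5 were above 0 in parental cells, 5 in subclone 1 and 4 in subclone 2, with sums of 15.7, 31.1 and 24.3 RPKM that include DCN itself and were led by LUM. COL3A1 went the other way, at 4.42, 2.21 and 0.463 RPKM, or 0.50 (0.356 to 0.697) and 0.105 (0.0524 to 0.190) of the parent, while COL1A1 had 9, 11 and 1 reads and COL1A2 at most 1 read. The part of such cells in the DCN result was not tested. FN1, a matrix protein to which LTBP1 is anchored, was the most abundant of the list at 1625 RPKM in parental cells, 1786 RPKM in subclone 1 and 1034 RPKM in subclone 2, but its reads could not be worked out and no interval is given.

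**Figure D4:**
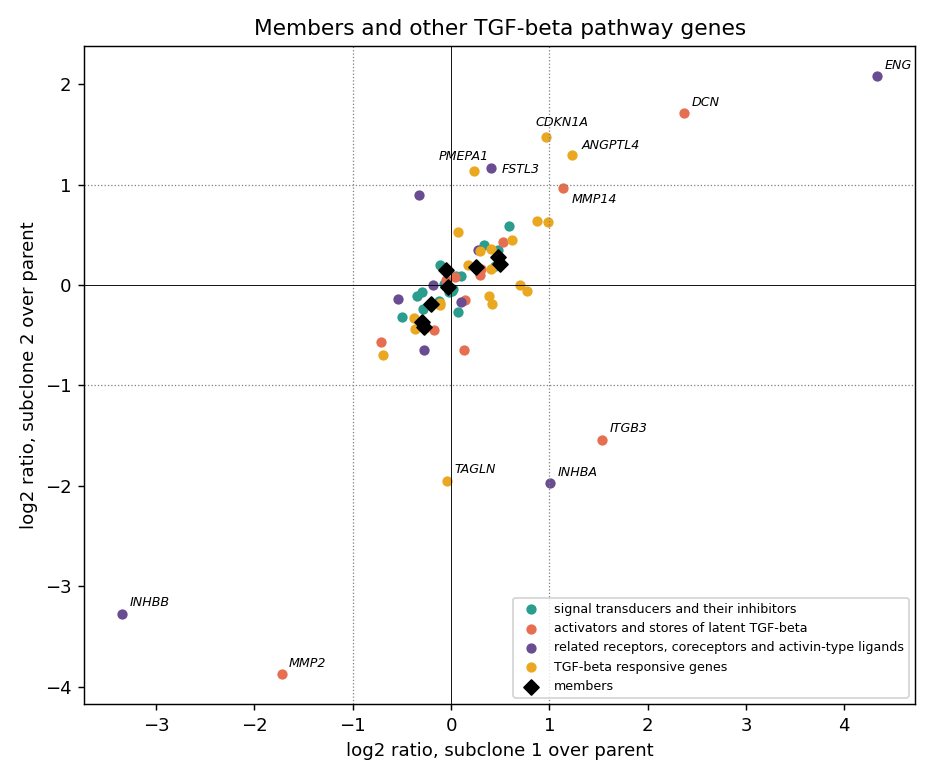
Log2 ratio over the parent in subclone 1 (x axis) and subclone 2 (y axis) of the 62 other pathway genes, coloured by list, and of the 8 TGF-β, receptor and LTBP genes that averaged 1 RPKM or more (black diamonds), with dotted lines at 2-fold. The axes share the parent library, and the diamonds lie between -0.5 and 0.5 on the x axis while ENG, MMP2, INHBB, INHBA and ITGB3 stand far from them.

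Of the 10 related receptors, coreceptors and activin-type ligands at this level, 2 were higher and 1 lower in subclone 1. The counts in subclone 2 were 2 higher and 2 lower. As shares of the list these are 20% and 10% in subclone 1, beside 4.9% and 1.82% of all genes. In subclone 2 they are 20% and 20%, beside 5.33% and 2.16%. A single gene is a large share of a list of 10, and no share was tested. ENG, or endoglin, the coreceptor related to TGFBR3, had 0.627 RPKM in parental cells (9 reads), 14.6 RPKM in subclone 1 (215 reads) and 2.98 RPKM in subclone 2 (45 reads). It was 23.3-fold higher in subclone 1 (12.0 to 51.6) and 4.75-fold higher in subclone 2 (2.29 to 11.1), and its level in subclone 1 was above that of TGFBR3 in the same library, 2.28 RPKM. Endoglin is known from endothelium, and of the 4 endothelial markers 3 were above 0 in parental cells, 4 in subclone 1 and 3 in subclone 2, with sums of 4.74, 11.8 and 7.56 RPKM. PECAM1 led these sums with 3.33, 9.81 and 4.46 RPKM and was highest in subclone 1, as ENG was. KDR had 1.36, 1.93 and 3.08 RPKM and was highest in subclone 2, at 2.26-fold over the parent (1.52 to 3.41). CDH5 had 0, 1 and 0 reads and VWF 2, 1 and 1 reads, and the part of endothelial cells in the ENG result was not tested. INHBB, the inhibin and activin βB subunit, had 17.4 RPKM in parental cells (251 reads), 1.62 RPKM in subclone 1 (24 reads) and 1.71 RPKM in subclone 2 (26 reads), or 0.0931 (0.0586 to 0.142) and 0.0984 (0.0630 to 0.148) of the parent. INHBA, the βA subunit, had 1.43, 2.99 and 0.292 RPKM in parental cells, subclone 1 and subclone 2 (14, 30 and 3 reads), with ratios over the parent of 2.09 (1.07 to 4.26) and 0.204 (0.0375 to 0.729). The activin antagonist FSTL3 had 14.5, 19.2 and 32.6 RPKM in the same order and was 2.25-fold higher in subclone 2 than in parental cells (1.87 to 2.72). BAMBI, a decoy receptor and the most abundant of the list, had 82.6, 88.6 and 73.2 RPKM.

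The 22 genes known to respond to TGF-β included 1 higher and 0 lower in subclone 1, and 3 higher and 1 lower in subclone 2. The shares in subclone 1, 4.545% and 0.0%, were near the 4.9% and 1.82% of all genes. In subclone 2 they were 13.636% and 4.545%, beside 5.33% and 2.16%, and this was not tested. The median log2 ratio of the 22 genes was 0.34 in subclone 1 and 0.08 in subclone 2. Over all genes it was 0.00 and 0.04, and this difference was not tested either. ID1, a transcriptional inhibitor that was the most abundant of the list, had 270 RPKM in parental cells (257 to 284), 331 RPKM in subclone 1 (316 to 346) and 342 RPKM in subclone 2 (328 to 358). CDKN1A, the cell cycle inhibitor p21, had 20.0 RPKM in parental cells, 39.2 RPKM in subclone 1 and 55.8 RPKM in subclone 2, which is 1.96-fold (1.65 to 2.32) and 2.79-fold (2.38 to 3.28) higher. ANGPTL4, which the study itself singled out in these cells and which is therefore no independent observation, was 2.36-fold and 2.47-fold higher in the subclones. PMEPA1, a feedback inhibitor of SMAD signalling, had only 17, 21 and 42 reads in parental cells, subclone 1 and subclone 2, and was 2.35-fold higher in subclone 2 than in parental cells (1.31 to 4.40). TAGLN, an actin-binding protein of smooth muscle, had 13, 13 and 3 reads, with a ratio of subclone 2 to the parent of 0.219 (0.0401 to 0.798).

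Between the subclones, 1 of the 62 pathway genes was at least 2-fold higher in subclone 2 and 5 were lower (ITGB3, MMP2, ENG, INHBA and TAGLN), or 1.613% and 8.065%, beside 1.42% and 1.39% of all genes. The limits given above for the choice of the lists and for ITGB3, INHBA and ENG hold here too, and these shares were not tested. The higher gene was GDF15, a stress-induced cytokine named after its values were seen, with 6.22 RPKM in subclone 1 and 14.7 RPKM in subclone 2, a fold of 2.37 (1.58 to 3.62). ENG in subclone 2 was at 0.204 of subclone 1 (0.145 to 0.283), ITGB3 at 0.0841 (0.0263 to 0.208) and MMP2 at 0.205 (0.103 to 0.376). Against these ratios, those of the 8 TGF-β, receptor and LTBP genes ran from 0.820 for LTBP3 to 1.15 for TGFBR1. The wider of these gaps depended on scaling, since division by ACTB or GAPDH brought LTBP3 to a log2 ratio of -0.16 or -0.17 and TGFBR1 to 0.32 or 0.31.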

How the data were processed

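The authors made mRNA libraries from Trizol-extracted total RNA with an Illumina TruSeq RNA kit and deposited RPKM values, 1 table per library, by Entrez number and symbol. The submitters' processing notes name hg19; the aligner, counter, annotation and strand handling are not given in the sources used here. A gene missing from a table was set to 0. Libraries were assigned by their labels, with 1 library for each of the 3 strains, so no p-value was computed.

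Library totals and reads were worked out from the RPKM, whose values are whole reads divided by length and total, with the common factor set by transcript lengths; whole reads were found for 98.549% of the 11370 genes that averaged 1 RPKM or more. Folds are ratios of RPKM without a pseudocount. Log2 ratios and the counts of genes at 2-fold used a pseudocount of 0.1 RPKM, which understates the change of low genes. Named pathway genes were those at least 2-fold different in a subclone over the parent, and the most abundant of each list, beside the 5 genes nearest in pattern to LTBP3. The 10 genes and the lists were chosen with earlier results of these data known. Alternatives were other pseudocounts, scalings, filters and a 1.5-fold threshold. Gene places and primer matches came from GENCODE 29 (GRCh38), promoters from RefSeq (GRCh38.p14), in which all 10 genes were found. Scripts, tested on simulated data, used Python 3.11.15, numpy 2.4.6, pandas 2.3.3, scipy 1.17.1 and matplotlib 3.10.9.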

Additional observations from a re-analysis of the deposited data

Results flagged for a closer look

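TGFBR1, INHBA and ITGB3 had log2 ratios over the parent of opposite sign in the 2 subclones. For TGFBR1 the log2 ratio was -0.05 in subclone 1 and 0.15 in subclone 2, both with intervals of the fold that included 1. For INHBA it was 1.01 and -1.97, from 14 reads in parental cells, 30 in subclone 1 and 3 in subclone 2. For ITGB3 it was 1.54 and -1.54, from 18, 58 and 5 reads. With 1 library per strain the difference between the subclones' effects was not tested for any of the 3 genes.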

How the results depend on the processing

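With 1 library per strain, none of these values has a replicate error, and the intervals give the depth limit only. At this depth TGFB3 (2 to 5 reads) and LTBP2 (14 to 46 reads) give ratios of low precision. Of 210 log2 ratios of the 10 genes under the alternatives, 206 stayed inside the counting interval and none of those whose interval left out 1 changed sign. The 4 exceptions were TGFBR2 in subclone 1 over the parent with ACTB scaling (-0.41), TGFBR2 between the subclones with ACTB (-0.02) and GAPDH (-0.03), and LTBP2 in subclone 1 over the parent with a pseudocount of 1 (0.67). Over all alternatives the log2 ratio in subclone 1 over the parent ran from 0.35 to 0.49 for TGFB1, from -0.41 to -0.26 for TGFBR2 and from 0.37 to 0.51 for LTBP3. ACTB scaling shifted the median of all genes by -0.13 in subclone 1 over the parent and 0.12 between the subclones, where GAPDH also shifted it by 0.12. The split of genes at least 2-fold higher and lower then became 449 and 328 in place of 557 and 207 in the first comparison, and 216 and 122 (ACTB) or 211 and 126 (GAPDH) in place of 161 and 158 between the subclones. Without the filter on low levels, 1 of the 10 genes (LTBP2) passed 2-fold upward in subclone 1 over the parent, against 0 with it. Of all genes, 9.43% did so without the filter, so that 1 of 10 is near the background. For the other pathway genes, the 6 higher in subclone 1 than in parental cells became 3 with a mean RPKM of at least 5 and 13 at 1.5-fold, and the 2 lower became 6 without a filter and 4 at 1.5-fold. The 6 higher in subclone 2 than in parental cells became 10 at 1.5-fold, where 12.7% of all genes were higher. The 5 lower became 3 with a pseudocount of 1, 12 without a filter, 2 with a mean of at least 5 and 8 at 1.5-fold. In the same order, the lower share of all genes was 1.32%, 5.83%, 1.13% and 7.30%. Between the subclones, the 1 higher became 2 with ACTB or GAPDH, 4 without a filter and 3 at 1.5-fold. The 5 lower became 2 with a mean of at least 5 and 10 at 1.5-fold. The higher share of all genes was 1.90% with ACTB and 1.86% with GAPDH. No share of all genes is given here for the other settings between the subclones, and these counts were not tested. A change of filter or threshold changes which genes enter a count, and the cause of the other shifts was not tested. No paired analysis was possible because each strain had 1 library and the labels carry no replicate numbers.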

Other observations

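Several pathway genes with many reads differed by less than 2-fold but by more than counting error, and those given here were chosen after their values were seen. TGFBI, a matrix protein named for its induction by TGF-β, had 136 RPKM in parental cells, 269 RPKM in subclone 1 and 210 RPKM in subclone 2, and was 1.98-fold (1.87 to 2.10) and 1.54-fold (1.45 to 1.64) higher than in parental cells. The inhibitory SMAD7 was 1.51-fold higher than in parental cells in both subclones, with intervals of 1.19 to 1.92 and 1.19 to 1.91. THBS1, an activator of latent TGF-β, was lower in both, at 0.609 (0.561 to 0.660) and 0.676 (0.625 to 0.731) of the parent. MYC, which TGF-β represses in epithelial cells, was likewise lower, at 0.620 (0.558 to 0.687) and 0.617 (0.556 to 0.683). The integrin subunits ITGB6 and ITGB8, which release TGF-β from its latent form, were barely detected, with 6, 3 and 10 reads and 8, 1 and 6 reads in parental cells, subclone 1 and subclone 2.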
